A study of Mus musculus with 8 samples.

Results

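The 8 genes described here are the adult alpha globins Hba-a1 and Hba-a2, the adult beta globins Hbb-b1 and Hbb-b2, the embryonic alpha-like globin Hba-x, the embryonic beta-like globins Hbb-y and Hbb-bh1, and Alas2. They were taken by symbol from a table of 23284 genes, and all 8 had a row. Of these, 4 had a count in any library and the same 4 (Hba-x, Hbb-y, Hbb-bh1 and Alas2) passed the filter on low counts. The libraries were RNA-seq of choroid plexus from mouse embryos at E18.5, in 4 groups of 2 biological replicates (n = 2 for every group value below). Whole choroid plexus of strain CD1 was taken from the lateral ventricles (telencephalic) or from the fourth ventricle (hindbrain). Epithelial cells purified by fluorescence-activated sorting came from the same regions of ICR (CD1) embryos and were selected by a red fluorescent protein expressed under Ttr, the transthyretin gene of the choroid epithelium. Within a preparation, both regions came from the same brains, whereas whole and sorted libraries were taken to come from different brains, since only the sorted ones carry the reporter. Whether embryos were pooled is not given in the sources used here. Strain label, reporter and sorting therefore cannot be told apart in a comparison of sorted with whole.

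Hemoglobin is built from alpha-like and beta-like globin chains that each hold a heme. In the mouse, Hba-x, Hbb-y and Hbb-bh1 are used mainly by the primitive red cells that arise in the yolk sac, and the adult globins by the definitive red cells that arise in the fetal liver. Alas2 encodes the erythroid form of 5-aminolevulinate synthase, the first and rate-limiting enzyme of heme synthesis, and ubiquitous Alas1 does this step in other cells. Choroid plexus is a folded secretory epithelium over a stroma rich in capillaries, so whole tissue holds blood cells as well as epithelium.

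Libraries held between 8849053 and 31613434 counts. Counts were pre-amplified reads without molecular identifiers, so intervals and floors given here cover counting error only. All 8 markers of choroid epithelium had counts in every group. Their summed level was 146031 to 192398 CPM (counts in every 1000000, relative to the scaled library size) in whole tissue and 167849 to 289055 CPM in sorted cells. These ranges overlap, with sorted hindbrain replicate 1 below both whole telencephalic libraries. Ttr, the gene of the reporter, dominates the sum, with 6439917 counts in whole hindbrain plexus against 170776 for Enpp2, the next of the 8. No library was a copy of another.

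Adult globins were listed at 0 counts in every library. This held for Hba-a1, Hba-a2, Hbb-b1 and Hbb-b2, in whole tissue as in sorted cells, while Alas2 and the red cell anion exchanger Slc4a1 had counts in all 8 libraries. A count of 0 allows up to 3 counts, which is 0.109 to 0.314 CPM depending on the library. Ratios of embryonic to adult globin, and of Alas2 to adult globin, could therefore not be formed. In the table, 3557 of the 23284 rows were at 0 in all libraries. Hbq1a and Hbb-bh2, further genes of the same clusters, were among them. Hbq1b, a theta-like alpha globin, had 6 and 5 counts in whole hindbrain plexus and 0 in the other 6 libraries.

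The adult alpha globins come as near-identical copies, as do Hbb-bs and Hbb-bt, the adult beta genes of the annotation used for sequences. The first 75 coding bases show how these copies compare with their embryonic relatives. Hbb-b1 and Hbb-b2 themselves were not compared. Sequences are from GENCODE vM21 transcripts, 5′ to 3′, with capitals at each base that differs from Hba-a1 (alpha-like) or from Hbb-bs (beta-like, the adult beta gene of that annotation).
Hba-a1: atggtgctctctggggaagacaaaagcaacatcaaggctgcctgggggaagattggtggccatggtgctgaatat
Hba-a2: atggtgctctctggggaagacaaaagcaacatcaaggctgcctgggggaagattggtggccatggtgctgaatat
Hba-x: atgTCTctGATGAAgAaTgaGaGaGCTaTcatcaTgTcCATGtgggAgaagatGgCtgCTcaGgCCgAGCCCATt
Hbb-bs: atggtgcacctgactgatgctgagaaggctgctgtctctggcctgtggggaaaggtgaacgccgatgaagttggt
Hbb-bt: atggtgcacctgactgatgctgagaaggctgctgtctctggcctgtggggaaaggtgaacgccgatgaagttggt
Hbb-y: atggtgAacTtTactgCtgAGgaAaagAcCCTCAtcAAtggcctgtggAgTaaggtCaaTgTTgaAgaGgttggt
Hbb-bh1: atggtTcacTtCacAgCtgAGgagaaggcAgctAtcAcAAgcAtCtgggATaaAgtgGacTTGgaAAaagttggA
In this stretch Hba-a2 had 0 differences from Hba-a1 and Hbb-bt had 0 from Hbb-bs, against 38 for Hba-x, 23 for Hbb-y and 24 for Hbb-bh1. Over the 426 coding bases, Hba-a1 and Hba-a2 differed at 1 base (99.8% identity), and Hba-x was 61.7% identical to Hba-a1. Over 441 bases, Hbb-bs and Hbb-bt also differed at 1 base, whereas Hbb-y and Hbb-bh1 were 76.4% identical to each other.

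A stretch of 50 bases, a length set here, pointed to 1 gene for the embryonic globins but often not for the adult genes of GENCODE vM21. Only transcripts were searched. The libraries were paired-end, and a mate can lie outside a shared stretch, so these shares are not shares of reads. Of the 50-base windows in each transcript, 0 of 752 in Hba-x, 0 of 584 in Hbb-y and 0 of 564 in Hbb-bh1 also occurred in another gene's transcript. The share was 439 of 650 (67.5%) for Hba-a1 and 439 of 505 (86.9%) for Hba-a2, each with the other copy. Hbb-bs shared 381 of 579 windows (65.8%), and Hbb-bs and Hbb-bt have no row in the table, which names the adult beta genes Hbb-b1 and Hbb-b2. For the protein-coding genes matched to that annotation, only the longest transcripts of the genes were compared with each other, on the same strand. By this narrower measure, rows at 0 in every library made up 1668 of 16783 (9.94%) where under 10% of windows were shared. They made up 184 of 418 (44.0%) at 50 to 90% shared and 196 of 255 (76.9%) at 90% or more. By the wider search above, over all transcripts and both strands, both adult alpha globins lie in the range of 50 to 90% and keep windows of their own. How reads that align to several places were counted is not given in the sources used here, and its part in the adult zeros was not tested. The adult rows are uncertain singly and as a sum, and a 0 there does not show that adult globin RNA was absent.

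Hba-x was high in sorted hindbrain cells and low in the 6 other libraries. Its counts were 2 and 6 in whole telencephalic plexus, 41 and 36 in whole hindbrain plexus, 45 and 22 in sorted telencephalic cells, and 968 and 575 in sorted hindbrain cells. As levels these were 0.122 and 0.629 CPM, 1.65 and 1.70 CPM, 1.70 and 1.36 CPM, and 35.2 and 21.1 CPM, in the same order of groups. Both sorted hindbrain libraries lay above all others. Whole telencephalic plexus lay below all others, and whole hindbrain plexus and sorted telencephalic cells overlapped. Group levels were 0.376 ± 0.358 CPM (SD) in whole telencephalic plexus, 1.68 ± 0.033 in whole hindbrain plexus, 1.53 ± 0.24 in sorted telencephalic cells and 28.2 ± 9.98 in sorted hindbrain cells.

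**Figure D1:**
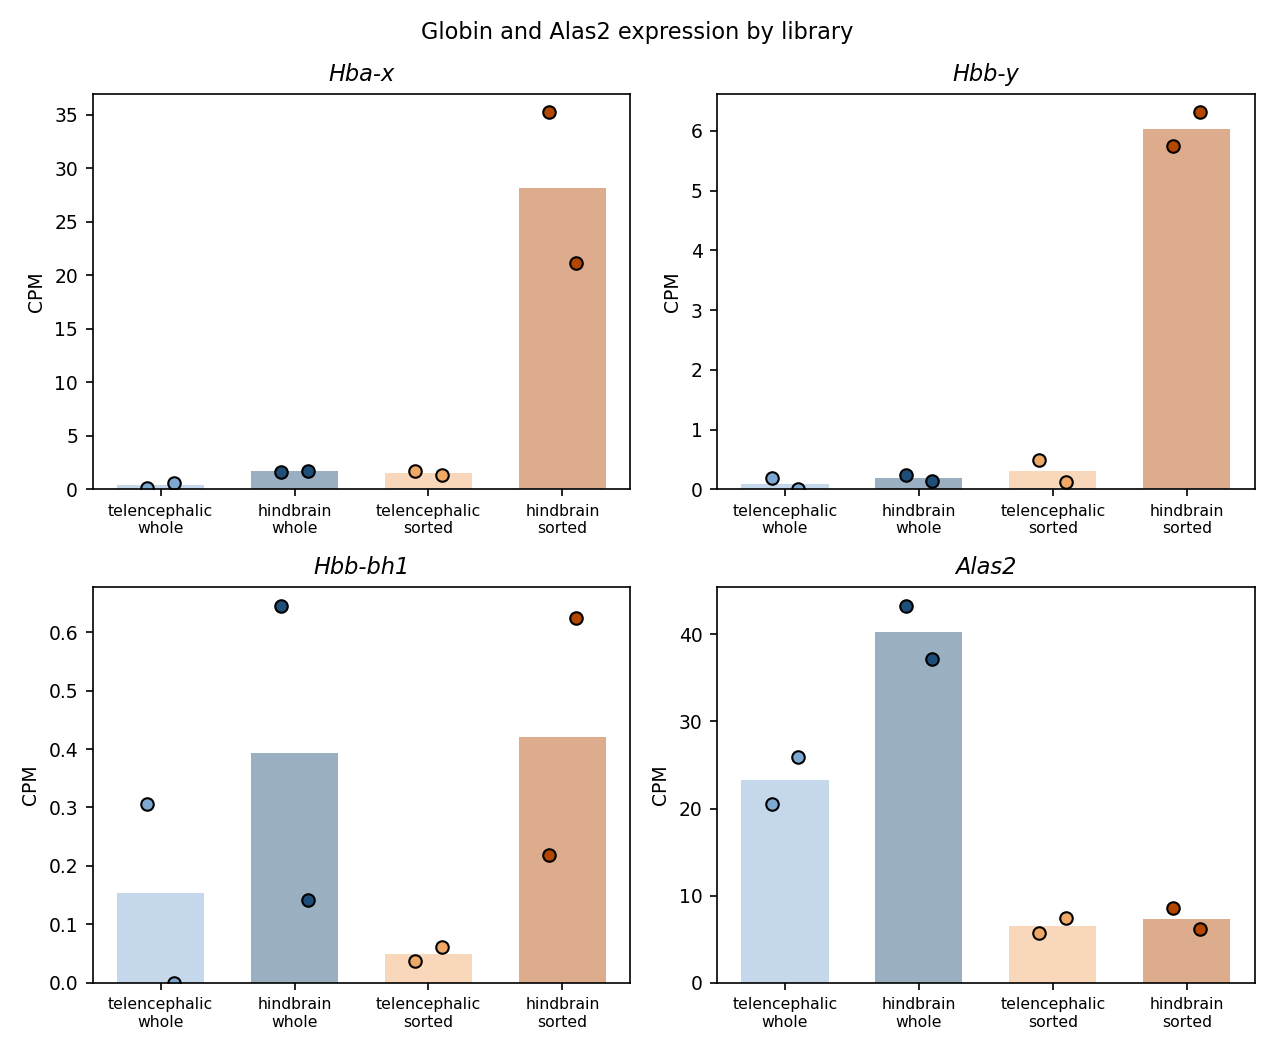
Levels of Hba-x, Hbb-y, Hbb-bh1 and Alas2 in CPM on the vertical axes, which differ between panels, with 1 point per library and bars at the mean of the 2 libraries of each group. Hba-x and Hbb-y stand high only in the 2 sorted hindbrain libraries among the 8, while Alas2 is highest in whole hindbrain plexus.

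The region comparison asks how plexus of the fourth ventricle differs from plexus of the lateral ventricles. Between the sorted preparations, Hba-x rose by 4.17 ± 0.35 on the log2 scale (SE of the fit) from telencephalic to hindbrain cells (edgeR adjusted p = 9.17e-06). The ratio of summed counts, corrected for library size, was 17.9-fold with a 95% counting interval of 14.0 to 23.2. In whole tissue Hba-x rose by 2.39 ± 0.57 (adjusted p = 0.0258), with a count ratio of 5.42-fold (2.62 to 13.0). That second call rests on 8 counts in whole telencephalic plexus. Its value was 1.41 without telencephalic whole replicate 1 (adjusted p = 0.435) and 3.72 without telencephalic whole replicate 2 (adjusted p = 0.0246). It also missed the threshold without hindbrain whole replicate 1 (2.40, adjusted p = 0.0656) or hindbrain whole replicate 2 (2.37, adjusted p = 0.0747). In bulk RNA, fewer cells of a type and less RNA per cell cannot be told apart.

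Hbb-y was likewise high in sorted hindbrain cells. It had 3 and 0 counts in whole telencephalic plexus, 6 and 3 in whole hindbrain plexus, 13 and 2 in sorted telencephalic cells, and 158 and 172 in sorted hindbrain cells. The sorted hindbrain libraries, at 5.75 and 6.31 CPM, lay above the other 6, which reached at most 0.492 CPM and overlapped with each other. Between sorted regions Hbb-y rose by 4.14 ± 0.58 (log2, adjusted p = 0.000387), with a count ratio of 17.1-fold (10.2 to 30.9). Without telencephalic sorted replicate 1 this value was 5.53 (adjusted p = 0.00213). In whole tissue the regional value of Hbb-y was 0.75 ± 1.02 (adjusted p = 0.808) and the count ratio 1.69 (0.422 to 9.70), so a difference was not detectable at this depth. Without telencephalic whole replicate 2 the value was 0.08. Without telencephalic whole replicate 1 it was 5.13, a fitted value against a library at 0 counts and so no measure of size (adjusted p = 0.991 and 0.609).

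Hbb-bh1, the other embryonic beta-like gene, was close to the detection floor in every group. Counts were 5 and 0 in whole telencephalic plexus, 16 and 3 in whole hindbrain plexus, 1 and 1 in sorted telencephalic cells, and 6 and 17 in sorted hindbrain cells. Sorted hindbrain cells were at 0.421 ± 0.29 CPM and sorted telencephalic cells at 0.0499 ± 0.017 CPM, and these groups did not overlap. The difference of 3.0 ± 1.29 missed the threshold (adjusted p = 0.147), with a ratio of 8.94 (2.21 to 78.3), and it was 2.07 without hindbrain sorted replicate 2 and 3.56 without hindbrain sorted replicate 1 (adjusted p = 0.38 and 0.0926). In whole tissue the value was 1.11 ± 1.15 (adjusted p = 0.734) and the groups overlapped.

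Alas2 had another order of groups. Its counts were 336 and 247 in whole telencephalic plexus, 1073 and 787 in whole hindbrain plexus, 151 and 119 in sorted telencephalic cells, and 235 and 169 in sorted hindbrain cells. In CPM it stood at 20.5 and 25.9, 43.3 and 37.2, 5.71 and 7.38, and 8.55 and 6.20, in that order. Whole hindbrain plexus was highest, whole telencephalic plexus next, and the sorted groups lowest and overlapping. Group levels were 23.2 ± 3.8, 40.2 ± 4.3, 6.55 ± 1.2 and 7.37 ± 1.7 CPM (SD). Between regions Alas2 rose by 0.80 ± 0.20 in whole tissue (log2, adjusted p = 0.0322). This call was lost when any 1 of the 4 whole libraries was left out, with values of 0.64 and 0.97 without telencephalic whole replicate 1 and 2 and of 0.68 and 0.90 without hindbrain whole replicate 1 and 2 (adjusted p = 0.383, 0.0939, 0.2 and 0.0737). In sorted cells the value was 0.19 ± 0.22 (adjusted p = 0.634).

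Of the 4 tested genes, 2 were called higher in whole hindbrain plexus (Hba-x and Alas2), where 5.79% of all 15698 tested genes were called in either direction, 3.34% higher and 2.45% lower. Between sorted regions 2 were called higher (Hba-x and Hbb-y), where 15.2% of all genes were called, 9.06% higher and 6.12% lower. None fell in either comparison. With 4 genes tested, these shares describe the genes and carry no test of the group.

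A direct test of whether the regional difference is larger in sorted cells called 0 of the 4 genes in edgeR and in DESeq2, against 1.34% of all genes in edgeR (1.1% with a positive and 0.242% with a negative difference). The difference of differences was 1.79 ± 0.80 for Hba-x (adjusted p = 0.514), 3.39 ± 1.39 for Hbb-y (adjusted p = 0.458), 1.89 ± 1.8 for Hbb-bh1 (adjusted p = 0.845) and -0.61 ± 0.29 for Alas2 (adjusted p = 0.55). Unadjusted p-values under 0.05 were found for 2 of them, Hba-x (0.0448) and Hbb-y (0.0306), and the share of all genes at that threshold is not given here. For Hba-x the value was 0.46 without telencephalic whole replicate 2 and 2.77 without telencephalic whole replicate 1 (adjusted p = 1 and 0.311). The larger regional differences of the globins in sorted cells are thus not shown to differ from those in whole tissue.

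**Figure D2:**
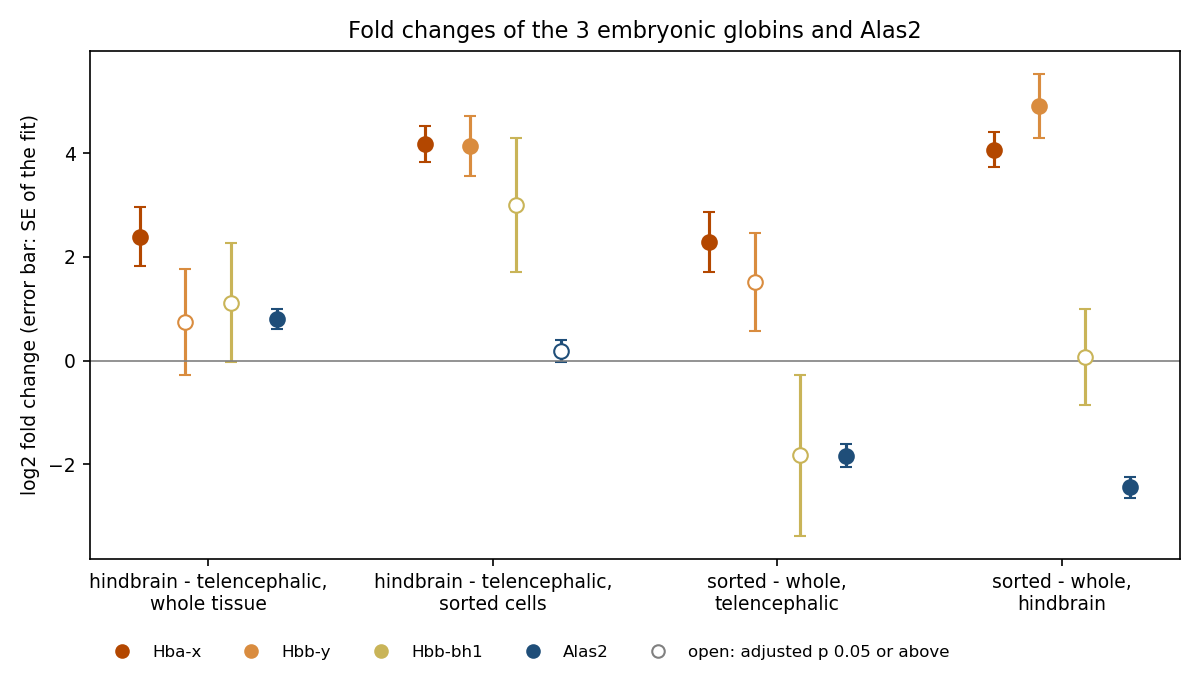
Log2 fold changes of the 3 embryonic globins and Alas2 on the vertical axis, for hindbrain minus telencephalic in each preparation and sorted minus whole in each region, with error bars of 1 SE and filled points where the edgeR adjusted p was below 0.05. Hba-x lies above 0 and filled in all 4 comparisons, and Alas2 is filled below 0 in both comparisons of sorted with whole.

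In sorted epithelial cells against whole tissue, Hba-x rose in both regions and Hbb-y in hindbrain, while Alas2 fell in both. Hba-x was higher in sorted cells by 4.07 ± 0.34 (log2) in hindbrain (adjusted p = 6.78e-06, count ratio 16.8-fold, interval 13.4 to 21.4). In telencephalic plexus it was higher by 2.28 ± 0.58 (adjusted p = 0.0141, ratio 5.09, interval 2.44 to 12.3). Leaving out telencephalic whole replicate 1 gave 1.30 (adjusted p = 0.228), leaving out telencephalic sorted replicate 1 gave 2.09 (adjusted p = 0.0896), and leaving out telencephalic whole replicate 2 gave 3.61 (adjusted p = 0.0118). Hbb-y was higher in sorted hindbrain cells by 4.91 ± 0.61 (adjusted p = 0.000177, ratio 30.8, interval 16.03 to 68.0). For Hbb-y in telencephalic plexus the value was 1.52 ± 0.95 (adjusted p = 0.277), with a ratio of 3.04 (0.860 to 16.4). It was 0.12 without telencephalic sorted replicate 1, 0.85 without telencephalic whole replicate 2, and 5.90 without telencephalic whole replicate 1, which leaves a whole library at 0 counts (adjusted p = 0.976, 0.638 and 0.182). Hbb-bh1 gave 0.07 ± 0.93 in hindbrain (adjusted p = 0.969) and -1.82 ± 1.55 in telencephalic plexus (adjusted p = 0.436).

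Alas2 fell by 2.45 on the log2 scale in sorted hindbrain cells (SE 0.21, adjusted p = 7.22e-06) and by 1.83 in sorted telencephalic cells (SE 0.21, adjusted p = 7.77e-05). In both regions each sorted library lay below each whole library. In hindbrain, 2 of the 4 tested genes were called higher and 1 lower, where 22.1% of all genes were called (10.2% higher and 11.9% lower). In telencephalic plexus 1 was called higher and 1 lower, where 22.4% of all genes were called (9.88% higher and 12.5% lower). These comparisons share groups with the regional ones and are not independent of them.

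Within a library, the ratio of Hba-x to Alas2 needs no scaling factor. This ratio was added after the adult globins were seen to be at 0. There were 168 and 41.2 Alas2 counts per Hba-x count in whole telencephalic plexus, 26.2 and 21.9 in whole hindbrain plexus, and 3.36 and 5.41 in sorted telencephalic cells. In sorted hindbrain cells the order turned, with 4.12 and 3.40 Hba-x counts per Alas2 count. As log2 of Hba-x over Alas2 the groups were at -6.38 ± 1.43, -4.58 ± 0.18, -2.09 ± 0.49 and 1.90 ± 0.20 (SD), and no pair of groups overlapped. With 2 libraries against 2, the smallest p an exact permutation test can give is 0.333, so no test of this ratio was made.

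**Figure D3:**
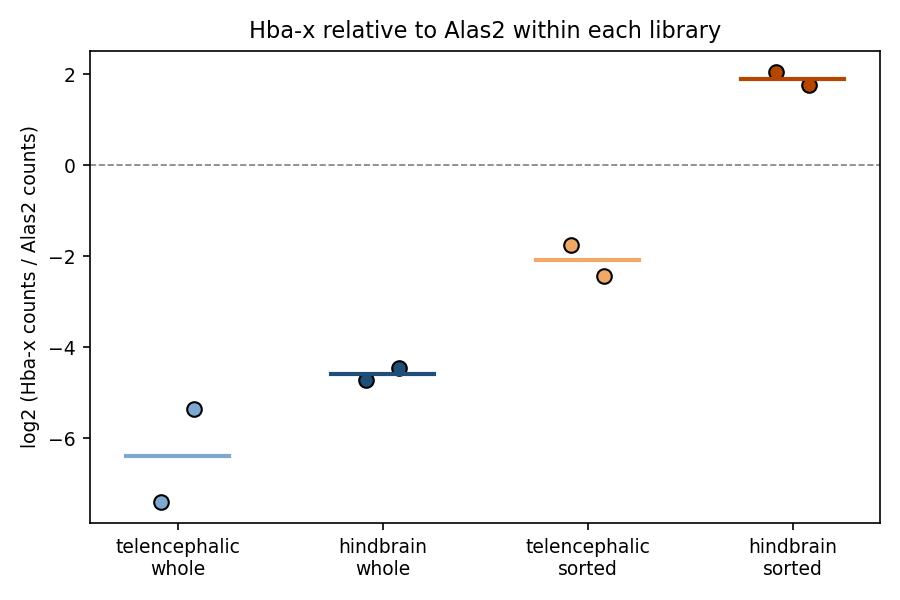
Log2 ratio of Hba-x counts to Alas2 counts on the vertical axis, with 1 point per library and a line at the mean of each group. The ratio lies below 0 in 6 libraries and above 0 in both hindbrain sorted libraries, at 2.04 and 1.77.

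Levels of different genes can be set side by side only per length. Per kilobase of transcript, sorted hindbrain cells held 44.0 and 26.3 CPM of Hba-x, 9.08 and 9.97 CPM of Hbb-y, 0.356 and 1.02 CPM of Hbb-bh1 and 4.196 and 3.04 CPM of Alas2. On that scale Hba-x was the most abundant of the 4 in these libraries, and Hbb-y stood above Alas2 in both. In whole hindbrain plexus Alas2 was at 21.2 and 18.2 CPM per kilobase and Hba-x at 2.06 and 2.12. Counts of the 3 embryonic globins together, as CPM of the unscaled library total, made up 0.660 ± 0.026 in whole telencephalic plexus, 2.54 ± 0.46 in whole hindbrain plexus, 1.61 ± 0.37 in sorted telencephalic cells and 34.3 ± 11.5 in sorted hindbrain cells. Even at its highest, embryonic globin RNA as counted here was a minute share of a library. Across the 8 libraries, Hba-x and Hbb-y had a Pearson r of 0.891 on log2 CPM, Hba-x and Alas2 one of -0.492, and Hba-x and Hbb-bh1 one of 0.339. These describe 4 groups of 2 libraries that share brains within a preparation.

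Other red cell genes were counted from lists set by function, and not all of their genes are particular to red cells. Summed counts in whole hindbrain plexus were 4606 for Epb41, 3035 for Sptb and 2803 for Urod, against 46 for Klf1. The part of other cells in the values of these lists was not tested. Heme synthesis (9 tested, Alas2 included), erythroid transcription factors (6 tested), red cell membrane and skeleton (13 tested) and other erythroid genes (8 tested) hold 35 tested genes besides Alas2, of 45 with a row. In sorted against whole hindbrain plexus, 15 of the 35 fell and 1 rose, with a median of -0.60 on the log2 scale against 0.01 over all genes, of which 11.9% were called lower and 10.2% higher. In telencephalic plexus 9 fell and 2 rose, with a median of -0.25, where 12.5% of all genes were called lower and 9.88% higher. The hindbrain count was 9 without hindbrain whole replicate 1, and the telencephalic count was 4 without telencephalic whole replicate 1 or telencephalic sorted replicate 1, and 5 without the other replicate of either group. Between regions, 0 rose and 0 fell in whole tissue in edgeR and in DESeq2, where edgeR called 5.79% of all genes at the adjusted threshold. An unadjusted edgeR p under 0.05 was found for 9 of the 35, and the share of all genes at that looser threshold is not given here. In sorted cells 2 rose and 3 fell, a share close to the 15.2% of all genes called there. The medians were 0.29 and 0.04. Thus Hba-x and Hbb-y in sorted hindbrain cells moved against the direction of most called genes of these lists, and Alas2 moved with it.

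Within heme synthesis, sorted cells had less Fech, which inserts iron into the ring in the last step, by 0.99 in hindbrain and 0.81 in telencephalic plexus (SE 0.12 each, adjusted p = 0.000155 and 0.000643). Urod, the decarboxylase, fell by 0.48 and 0.51 (adjusted p = 0.0413 and 0.036). Ppox, the oxidase before Fech, rose by 0.81 and 1.08 (adjusted p = 0.0292 and 0.008). Alas1, the ubiquitous counterpart of Alas2, gave 0.41 ± 0.16 and 0.39 ± 0.17 and was not called (adjusted p = 0.0922 and 0.121). Alad, the dehydratase after it, fell by 0.72 from telencephalic to sorted hindbrain cells (adjusted p = 0.0192) and gave -0.25 ± 0.19 between regions in whole tissue (adjusted p = 0.601).

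Red cell membrane and skeleton genes mostly fell on sorting where they were called. Of the 13 tested membrane and skeleton genes, 7 fell in hindbrain and 5 in telencephalic plexus, with 1 rise (Dmtn, 0.60 in telencephalic plexus, adjusted p = 0.0343). Over all genes, 11.9% were called lower in hindbrain, and 12.5% lower and 9.88% higher in telencephalic plexus. Slc4a1 stood at 18.2 and 18.9 CPM in whole hindbrain plexus and at 0.582 and 4.22 CPM in sorted hindbrain cells, and it fell by 2.95 (adjusted p = 0.00374). Epb41, which ties spectrin to the membrane, fell by 0.63 in hindbrain and by 0.52 in telencephalic plexus (adjusted p = 0.00327 and 0.0107). Sptb, beta spectrin, fell by 0.47 in telencephalic plexus (adjusted p = 0.0229). Add2, an adducin of the skeleton, had 0 counts in both sorted hindbrain libraries and was at least 17.1-fold lower there than in whole hindbrain plexus, against a floor of 3 counts over the group. Gypc, the glycophorin linked to the skeleton, fell by 2.72 in telencephalic and 1.62 in hindbrain plexus (adjusted p = 0.0027 and 0.0186), and it was higher in hindbrain than in sorted telencephalic cells by 1.81 (adjusted p = 0.0308).

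Among the transcription factors, Tal1, needed for blood formation, fell by 4.19 in hindbrain and 4.77 in telencephalic plexus (adjusted p = 0.00146 and 0.0014), and its partner Lmo2 by 1.16 and 1.41 (adjusted p = 0.00291 and 0.00137). Both genes are also used by endothelial cells, and all 8 endothelial markers fell on sorting in each region. Bcl11a, a repressor of embryonic globin genes in definitive red cells, is also used in neurons and lymphocytes. It stood at 5.38 and 5.97 CPM in whole telencephalic plexus, 3.47 and 2.45 in whole hindbrain plexus, 3.37 and 1.36 in sorted telencephalic cells and 0.982 and 0.257 in sorted hindbrain cells. The hindbrain sorted libraries were the lowest of the 8, and the value was -2.25 ± 0.56 against whole tissue (adjusted p = 0.0133) and -1.95 ± 0.56 against sorted telencephalic cells (adjusted p = 0.0345). These values of Bcl11a rest on 34 summed counts in sorted hindbrain cells, and its part in the globin values was not tested. Klf1, an activator of the adult beta globin genes, had 0.245 and 0.21 CPM, 1.33 and 0.614 CPM, 0.529 and 0.434 CPM, and 1.09 and 0.257 CPM in the same order, with no call in any comparison. Gata1, the master regulator of red cells, had between 0 and 4 counts per library and was not tested. Of the other erythroid genes, Hemgn fell by 2.93 in sorted hindbrain cells (adjusted p = 0.00781), and Trim10 had a summed count 23.8-fold lower (interval 7.77 to 119, 3 counts in the sorted group). Bpgm, which makes the hemoglobin ligand bisphosphoglycerate, fell by 0.69 (adjusted p = 0.00474).

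**Figure D4:**
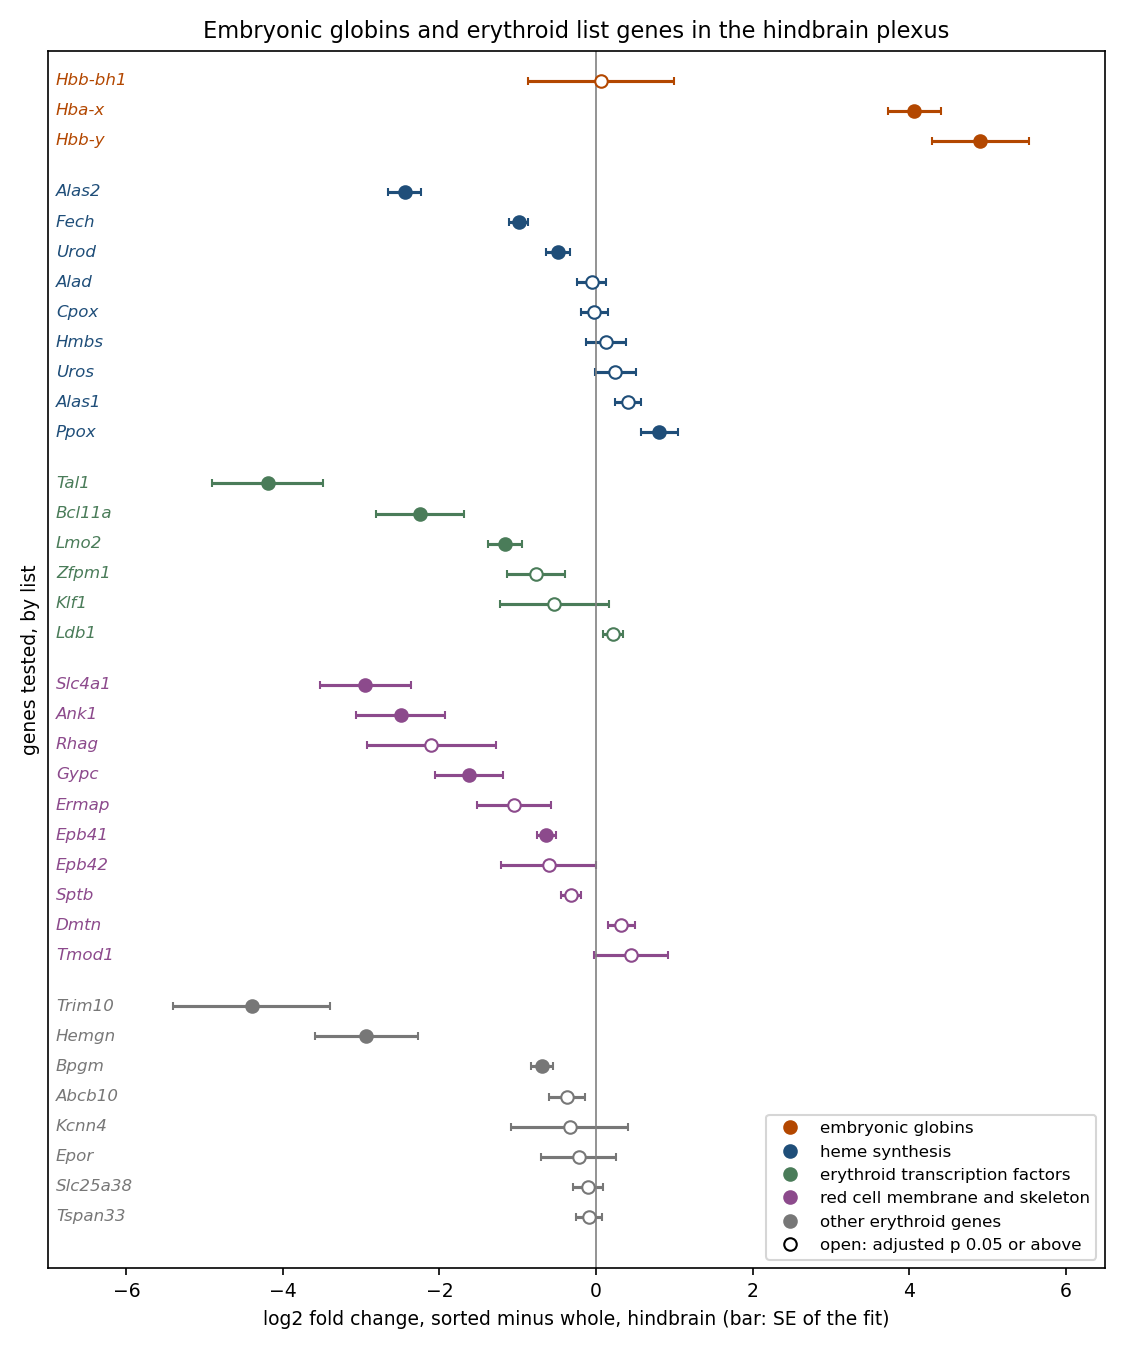
Log2 fold change of sorted against whole hindbrain plexus on the horizontal axis for the 3 embryonic globins, the heme synthesis genes and 3 erythroid lists, with bars of 1 SE and filled points where the edgeR adjusted p was below 0.05 (Add2, at 0 counts in both sorted libraries, is left out, and 10 of the 13 tested membrane and skeleton genes are drawn). Hba-x and Hbb-y lie to the right at 4.07 and 4.91, while most filled genes of the lists, Alas2 included, lie to the left.

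Markers of blood and stroma were measured beside these results. Summed over 8 genes, erythroid markers stood at 10.5 and 12.5 CPM in whole telencephalic plexus, 32.9 and 31.4 in whole hindbrain plexus, 4.01 and 6.45 in sorted telencephalic cells, and 4.80 and 7.82 in sorted hindbrain cells. Sorted hindbrain cells, where Hba-x and Hbb-y were highest, overlapped with sorted telencephalic cells in this sum. Between sorted regions 0 of the 7 tested were called in edgeR or DESeq2 (0 at an unadjusted p under 0.05), with a median of 0.21. There edgeR called 15.2% of all genes, so with 7 genes a count of 0 does not show equal red cell content. The part of red cells in the globin values of sorted cells was not tested. In whole tissue 0 of 7 were called between regions in edgeR or DESeq2, where edgeR called 5.79% of all genes. The median was 1.67, and 4 of the 7 had an unadjusted edgeR p under 0.05. Alas2 and Hba-x were higher in the same whole tissue, and the part of red cell content in that was not tested. None of the 8 erythroid markers was at 0 in all libraries, and Gata1 was at 0 in 3.

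Neutrophil markers, summed over 8 genes, were at 1.99 to 2.57 CPM in telencephalic and 48.8 to 61.5 CPM in whole hindbrain plexus, and all 7 tested were called higher, in the same direction as Hba-x and Alas2 in whole tissue. Their part in those values was not tested. In sorted cells they were at 4.65 to 14.9 CPM in telencephalic and 7.45 to 13.6 CPM in hindbrain. Macrophage markers were at 32.2 to 54.0 CPM in telencephalic and 153 to 187 CPM in sorted hindbrain cells, where 8 of 8 were called higher, as were 5 of 6 mesenchymal markers (655 to 683 against 1049 to 1363 CPM) and 4 of 8 endothelial markers (114 to 123 against 160 CPM in both). These groups thus moved in the same direction as Hba-x and Hbb-y between sorted regions, and their part in the globin values was not tested. Against whole hindbrain tissue, where Hba-x and Hbb-y rose, macrophage markers stood at 170 to 175 CPM before sorting and mesenchymal markers at 1328 to 1473 CPM. Of these, 1 of 8 macrophage markers was called lower and none higher, 0 of 6 mesenchymal markers were called in edgeR (2 at an unadjusted p under 0.05, and 1 lower in DESeq2), and all 8 endothelial markers fell, from 622 and 673 CPM to 160 CPM in both libraries. In telencephalic plexus, where Alas2 and erythroid list genes fell on sorting, all 8 endothelial markers fell, from 592 and 623 CPM to 114 and 123 CPM, with a median of -4.31. There 6 of 8 macrophage markers also fell, from 131 and 148 CPM to 32.2 and 54.0 CPM, as did 5 of 6 mesenchymal markers, from 956 and 1116 CPM to 655 and 683 CPM. Neutrophil markers went both ways on sorting, with 3 of 7 called higher in telencephalic and all 7 lower in hindbrain plexus. The part of these cells in the falls of Alas2 and the erythroid lists was not tested. Over all genes, 3.34% were called higher between regions in whole tissue and 9.06% between sorted regions. On sorting, 11.9% were called lower in hindbrain, and 12.5% lower and 9.88% higher in telencephalic plexus. DESeq2 called 6 neutrophil markers higher in whole hindbrain plexus. On sorting in hindbrain it called 5 neutrophil and 0 macrophage markers lower. None of the markers in these 4 lists was at 0 in all libraries.

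Alas2 overlaps another gene. Of its 1988 windows of 50 bases, 275 (13.8%) also lie in another gene's transcript, mainly that of Apex2, a DNA repair nuclease gene on the opposite strand. Because the kit marks no strand, reads from the shared stretch cannot be told apart. Apex2 stood at 3.63 to 5.24 CPM in whole tissue and 6.26 to 7.34 CPM in sorted cells, with values of 0.74 ± 0.25 in hindbrain (adjusted p = 0.048) and 0.70 ± 0.25 in telencephalic plexus (adjusted p = 0.0667), opposite in sign to those of Alas2.

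Genes beside Hba-x on the chromosome were taken in the order of the GRCm38.p6 annotation after its values were seen. Between sorted regions, Snrnp25 gave -0.57, Rhbdf1 -0.14, Mpg -0.28, Nprl3 (which holds the distal alpha globin enhancers) 0.07 and Sh3pxd2b 0.42 on the log2 scale, and none was called. On sorting in hindbrain, where Hba-x rose by 4.07, Rhbdf1 rose by 0.66 (adjusted p = 0.0277). Nprl3 gave 0.58 (adjusted p = 0.0591), Mpg 0.04, Sh3pxd2b -0.21 and Snrnp25 -0.38 there, and these 4 were not called. The cluster genes between Nprl3 and Sh3pxd2b other than Hba-x had 0 counts, apart from Hbq1b. Beside Hbb-y, Hbb-bh1 had 49 counts over the 8 libraries, and Hbb-bh2 on its one side and the olfactory receptor genes on its other had 0.

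The bases before the start sites of Hba-x, Hbb-y and Alas2, chosen after their values were seen, are shown as a description. RefSeq sequences of GRCm38.p6 were found for 5 of the 8 genes, and not for Hbb-bh1. Those of Hba-x (chr11:32276350-32276599, plus strand), Hbb-y (chr7:103853208-103853457, minus strand) and Alas2 (chrX:150547167-150547416, plus strand) each hold the 250 bases before the annotated start. Capitals mark GATAA, the core bound by GATA factors, the CACCC box bound by Klf factors and the CCAAT box bound by NF-Y, searched on both strands, so a match on the opposite strand shows as its reverse complement.
Hba-x: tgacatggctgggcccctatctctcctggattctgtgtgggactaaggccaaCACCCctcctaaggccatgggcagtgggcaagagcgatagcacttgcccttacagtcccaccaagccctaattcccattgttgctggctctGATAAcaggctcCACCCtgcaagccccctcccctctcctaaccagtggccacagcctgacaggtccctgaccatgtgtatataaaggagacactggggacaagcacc
Hbb-y: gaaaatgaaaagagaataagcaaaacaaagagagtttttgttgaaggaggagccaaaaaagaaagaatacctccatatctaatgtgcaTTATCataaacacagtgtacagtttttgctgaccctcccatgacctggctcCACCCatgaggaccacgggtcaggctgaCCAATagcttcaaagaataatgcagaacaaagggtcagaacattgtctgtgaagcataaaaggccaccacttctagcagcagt
Alas2: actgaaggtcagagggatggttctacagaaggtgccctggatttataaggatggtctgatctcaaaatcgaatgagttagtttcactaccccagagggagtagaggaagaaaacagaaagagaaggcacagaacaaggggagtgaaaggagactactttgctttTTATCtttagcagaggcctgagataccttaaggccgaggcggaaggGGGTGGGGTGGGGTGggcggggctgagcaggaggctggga
Hba-x has GATAA 107 bases before the start and CACCC at 198 and 95, with no CCAAT in this window. Hbb-y has GATAA on the opposite strand at 162, CACCC at 111 and CCAAT at 83. Alas2 has GATAA on the opposite strand at 86 and CACCC on the opposite strand at 40, 35 and 30. Of 27025 RefSeq promoters of this length, 23.0% hold GATAA, 51.3% CACCC and 34.5% CCAAT on either strand, and 3.47% hold all 3. The same stretches of Hba-a1, Hba-a2, Hbb-bs and Hbb-bt each hold all 3. Such matches describe the sequence and are not shown to be sites.

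Genes with the pattern most like that of Hba-x across the 8 libraries, among 12458 genes with a mean of at least 1 CPM, were Appl2 (Pearson r 0.992), Ap1s2 (0.982), Hsf4 (0.981), Myo5c (0.975) and Plk3 (0.974). For Alas2, compared in the same way after its values were seen, they were Nfib (0.992), Sept3 (0.986), Ski (0.985), Usp1 (0.984) and Net1 (0.984). Members and genes with provisional names, such as Gm and Rik, were left out of both rankings. The highest r among 12458 genes over 8 libraries are high by selection. Pearson r takes no account of the size of a change. Group levels of Hba-x ran from 0.376 CPM in whole telencephalic plexus to 28.2 CPM in sorted hindbrain cells. Between the same groups Appl2 went from 37.2 to 60.2 CPM and Hsf4 from 0.301 to 3.45 CPM. From whole to sorted hindbrain, Alas2 went from 40.2 to 7.37 CPM, Nfib from 213 to 153 CPM and Sept3 from 15.8 to 1.28 CPM.

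Genes that handle iron, heme and free hemoglobin were also counted, and all those named below are called ones. Of 12 tested genes of iron uptake and heme, edgeR called 2 higher and 4 lower on sorting in each region. It called 2 higher and 0 lower between sorted regions, and 1 higher and 1 lower between regions in whole tissue. Over all genes, 15.2% were called between sorted regions, 5.79% in whole tissue, and 22.1% and 22.4% on sorting in hindbrain and telencephalic plexus. Slc25a37, the mitochondrial iron importer mitoferrin used strongly by red cells, was ordered as Alas2, with the sorted groups overlapping, at 60.3 and 70.5 CPM in whole telencephalic plexus, 110 and 104 in whole hindbrain plexus, 21.9 and 23.9 in sorted telencephalic cells and 21.4 and 26.3 in sorted hindbrain cells. It rose by 0.71 between regions in whole tissue (adjusted p = 0.00738) and fell on sorting by 2.17 in hindbrain and 1.51 in telencephalic plexus (adjusted p = 7.08e-07 and 1.43e-05). Tfrc, the transferrin receptor, rose on sorting by 0.88 and 0.76 (adjusted p = 0.00479 and 0.0141). Of 11 tested genes of hemoglobin and heme clearance, 3 were called higher and 1 lower between sorted regions, and 1 higher and 1 lower in whole tissue. On sorting, 2 were called higher and 0 lower in hindbrain, and 3 higher and 1 lower in telencephalic plexus. Hmox1, heme oxygenase, which breaks heme down, was at 10.1 and 8.70 CPM in whole telencephalic plexus, 29.03 and 22.8 in whole hindbrain plexus, 9.72 and 11.9 in sorted telencephalic cells and 44.996 and 40.5 in sorted hindbrain cells. It rose from telencephalic to hindbrain by 1.45 in whole tissue and 1.99 in sorted cells (adjusted p = 0.000417 and 1.4e-05). Hpx, the heme scavenger hemopexin, was low but higher in sorted cells by 2.41 in hindbrain and 1.95 in telencephalic plexus (adjusted p = 0.00863 and 0.0439). Cygb, a globin of fibroblast-like cells that carries no blood oxygen, was higher in hindbrain than in sorted telencephalic cells by 1.74 (adjusted p = 0.000244). It was called lower on sorting in telencephalic plexus, by 1.73. On sorting in hindbrain it gave -0.33, and between regions in whole tissue 0.34, neither called.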

How the data were processed

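The deposited table gives raw, whole-number counts of reads for each gene symbol. Per the labels' protocols, total RNA from a silica column was pre-amplified with NuGEN Ovation RNA-seq V2 and made into paired-end TruSeq v2 libraries, which mark no strand. Per the submitters' processing notes, the reads were handled with Bowtie2 2.0.5, TopHat2 2.0.4, CASAVA 1.8.2, HTSeq and DESeq 1 on the build mm9, with no role or order stated. Not given in the sources used here are the annotation, the strand setting, the HTSeq version and the treatment of reads with several alignments.

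All 8 libraries were fitted in edgeR 4.0.16 (R 4.3.3) with 4 group means, TMM factors and genes kept by filterByExpr (minimum count 10, minimum total 15), which left 15698. Quasi-likelihood F tests gave 5 comparisons: region in each preparation, preparation in each region, and the difference of the regional effects. A gene was called at a Benjamini-Hochberg adjusted p below 0.05 over all tested genes. Counts of genes at an unadjusted p under 0.05 have no share over all genes beside them. P-values measure the spread between libraries described only as biological replicates, estimated over the 4 groups together. The replicates of a group differed unequally. Their chi-square per degree of freedom, which also grows with depth, was 5.16 in whole telencephalic and 12.3 in whole hindbrain plexus. It was 15.8 in sorted telencephalic and 61.1 in sorted hindbrain cells. CPM uses the TMM-scaled library size. Count ratios carry 95% exact intervals. Likeness is the Pearson r of log2 CPM (prior count 2). The fit was also run on simulated counts with changes set in whole hindbrain plexus alone. That run does not cover the sorted comparisons or the shared brains, and its outcome is not used here.

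Members and gene lists were chosen with earlier results of these data known. Of 133 listed genes 128 have a row, 6 under an older symbol. Named list genes are up to 4 called per list and comparison, by adjusted p, and the 2 of highest level in lists with under 2 calls. Dmtn, Add2, Klf1, Gata1, Alas1, Alad and the genes of iron, heme clearance and Cygb were named for their roles after their values were seen. The values of 2 membrane and skeleton genes, counted within their lists, are not reported here. Adult globins at 0 made the intended ratios to them, their summed copies and the likeness to them impossible, and the ratio of Hba-x to Alas2 took their place.

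Regions of 1 preparation came from the same brains, per the series' design text. Deviations from the group means of libraries from the same brains correlated at 0.193 in whole tissue and 0.145 in sorted cells over 15698 genes. Alternatives were RLE factors, unscaled totals, leaving Rn45s, Ttr and the members out of the library size, no filter, DESeq2 1.42.0, each comparison alone, the brain as a block, and leaving out each library.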

Additional observations from a re-analysis of the deposited data

How the results depend on the processing

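Calls of Hba-x and Hbb-y between sorted regions and on sorting in hindbrain, and of Alas2 on sorting in both regions, kept direction and side of the threshold under every setting run for them, with log2 values of 3.75 to 4.49 for Hba-x and 3.60 to 5.53 for Hbb-y between sorted regions. The calls of Hba-x and Alas2 between regions in whole tissue, and of Hba-x on sorting in telencephalic plexus, were lost without single libraries, as given beside them. Leaving out 1 library at a time, the number of the 4 genes called ranged from 0 to 2 between regions in whole tissue and from 1 to 2 on sorting in telencephalic plexus, and the other erythroid genes called lower from 4 to 12 in telencephalic and from 9 to 16 in hindbrain plexus. With the brain as a replicate block the same 2 genes were called in each region comparison, at 2.38 (adjusted p = 0.00989) for Hba-x and 0.80 (adjusted p = 0.0228) for Alas2 in whole tissue and 4.19 (adjusted p = 6.7e-07) for Hba-x and 4.18 (adjusted p = 0.000117) for Hbb-y in sorted cells. The block could not be used for preparation, whose libraries come from different brains. Changes of sign occurred only in values that were not called, and their cause was not tested. Hbb-bh1 on sorting in hindbrain was -0.15 with unscaled totals, and from -0.87 to 1.53 leaving out single libraries. The other ranges that cross 0 when single libraries were left out were -3.15 to 3.32 for Hbb-bh1 and -0.98 to 4.79 for Hbb-y in the difference of regional effects, -2.55 to 3.22 for Hbb-bh1 on sorting in telencephalic plexus, -0.32 to 6.15 for Hbb-bh1 between regions in whole tissue, and -0.064 to 0.40 for Alas2 between sorted regions. Embryonic globin counts in whole telencephalic plexus were 0.69 CPM of the unscaled total with Rn45s left out of that total, against 0.660. Low counts limit Hbb-bh1 and Hbb-y, at 0 to 16 per library in whole tissue, and Hba-x in whole telencephalic plexus, at 2 and 6. Over all genes tested, fitting the libraries of a comparison alone gave 1587 calls against 909 between regions in whole tissue, 1460 against 2383 between sorted regions and 2236 against 3472 on sorting in hindbrain. The difference of regional effects had 441 calls with no filter, 317 with DESeq2 and 337 with the block, against 211. Leaving out 1 library at a time, calls over all genes ranged from 316 to 1341 between regions in whole tissue, from 1051 to 3253 between sorted regions, from 58 to 473 for the difference of regional effects, and on sorting from 1519 to 4501 in telencephalic and from 1691 to 3873 in hindbrain plexus. With unscaled totals the median log2 difference of all genes moved to 0.201 between sorted regions, to 0.125 in the difference of regional effects and to -0.304 and -0.189 on sorting in telencephalic and hindbrain plexus. The share of calls that were higher became 70.7% against 57.6% between regions in whole tissue, 83.5% against 59.7% between sorted regions, and 10.5% against 44.1% and 20.1% against 46.3% on sorting in telencephalic and hindbrain plexus.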
